A study of Mus musculus with 10 samples.

Results

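The proteasome is the large protease that degrades proteins tagged with ubiquitin, and its subunit genes are described here in the preoptic region of mice given bacterial lipopolysaccharide (LPS). Members were all genes named alone by a probe set and called Psma, Psmb, Psmc or Psmd with a number, without the immunoproteasome genes Psmb8, Psmb9 and Psmb10. The rule found 36 of the 18193 genes that have a probe set of their own, 16 in the core particle (Psma and Psmb) and 20 in the regulatory particle (Psmc and Psmd). Each gene was read from its brightest probe set, a group of short array probes for 1 transcript. After the dimmest 40% of all genes were left out, 32 members remained, 13 of the core and 19 of the regulatory particle.

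The core particle is a barrel of stacked rings, in which outer rings of alpha subunits (Psma) gate the entry and inner rings of beta subunits (Psmb) hold the cutting sites. The regulatory particle caps the barrel: its ATPases (Psmc) unfold the substrate, and its non-ATPase subunits (Psmd) bind ubiquitin, remove it and hold the cap together. In immune-activated cells the catalytic beta subunits can be exchanged for the immunoproteasome forms, and when proteasome activity is low the transcription factor encoded by Nfe2l1 raises the constitutive subunit genes together.

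The series compared 5 DBA1/lacJ mice labelled wild-type with 5 DBA1/lacJ mice labelled mPGES-1 KO, 1 array each. The enzyme mPGES-1, encoded by Ptges, makes prostaglandin E in LPS-induced fever. Every mouse of both groups received 120 µg/kg LPS intraperitoneally, its brain was removed 5 h later, and the preoptic region of the hypothalamus was cut out by laser capture, so there is no group without LPS. The labels give no age or sex. RNA was amplified in 2 rounds before hybridization, and the captured tissue holds all cell types of the region. On every array the control probe sets for the 3-prime end read far above those for the 5-prime end. For Gapdh the log2 ratio was 4.54 to 5.54 with the wild-type label and 4.93 to 5.47 with the knockout label. For actin it was 6.59 to 7.53 and 6.28 to 7.38. The part of this in dim or disagreeing probe sets was not tested.

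The arrays had been scaled to one trimmed mean, but their distributions differed between the groups. The brightest signal on an array was 68999 to 144328 with the wild-type label and 43957 to 67685 with the knockout label. The median signal was 32.0 to 44.8 and 24.6 to 29.8. The mean log2 signal of the hybridization controls was 10.9 to 12.4 with the wild-type label and 10.4 to 11.3 with the knockout label. Ptges was below the filter, so its values are a weak check of the labels. It was not lower with the knockout label: its probe set 1439747_at read 1.51 to 9.33 on the arrays labelled wild-type and 17.5 to 76.1 on those labelled knockout. Its other probe sets overlapped between the labels, 1449450_at, the brightest, at 2.75 to 57.8 and 22.2 to 61.5, and 1449449_at at 1.25 to 34.6 and 9.83 to 60.2. Fitted with all genes, the brightest probe set had a log2 difference of 0.27 ± 0.34 (SE). Where the deletion lies against these probes is not stated in the labels, so the groups are called labelled wild-type and labelled knockout, and every difference is labelled knockout minus labelled wild-type. Of 7 preoptic markers, Gal, Esr1, Adcyap1, Nts and Calcr gave signals of at least 88.8 on every array. Trh was below the filter, at 22.2 to 75.8, and Moxd1 ran from 5.52 to 169. The table holds no value of 0.

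Sequences near the start sites were searched for a candidate element and for a variant of its letters. Nfe2l1 binds, with small Maf proteins, to elements with the core TGACNNNGC. TGAGNNNGC is a variant by its letters, and whether Nfe2l1 binds it was not examined. RefSeq promoters (build GRCm38.p6, 250 bases before to 50 after a start, 300 bases in all) matched 29 of the 36 members with 31 promoters. On either strand, TGACNNNGC was in 16.1% of member promoters and in 12.4% of all 32851 promoters, and TGAGNNNGC was in 38.7% and 17.6%. Of the 13 core promoters, 8 (61.5%) held at least 1 of the motifs, against 7 of 18 (38.9%) for the regulatory particle and 27.8% of all promoters. The box CCAAT was in 38.7% of member promoters and 37.4% of all. No matches of different motifs overlapped. A match is a description of the letters and not a binding site. The core gene matches are shown because they include the genes with the largest differences. Capitals mark the match, with up to 6 bases on each side, and capitals that begin with GC are matches on the other strand.
Psma4, 127 bases before the start: gcagacTGAGCCCGCcccagc
Psma4, 24 bases after the start: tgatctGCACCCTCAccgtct
Psma5, 9 bases after the start: agcgcgGCGTGCTCActcctc
Psma6, 170 bases before one start: ggtcagGCAACCTCAtcagct
Psma6, 92 bases before the other start: gggcccGCCTACTCAggggca
Psma7, 42 bases after the start: tgacggTGAGTGTGC
Psmb3, 10 bases before the start: tgacccTGAGAAAGCcagagc
Psmb5, 47 bases before the start: aagttgTGACGTCGCggcgtt
Psmb6, 9 bases before the start: agagagTGACGGAGCgcttta
The promoter of Psmb3, the gene that differed most, is printed whole (chr11:97703184-97703483, plus strand), with its 2 CCAAT boxes and its TGAGNNNGC match in capitals.
Psmb3 promoter: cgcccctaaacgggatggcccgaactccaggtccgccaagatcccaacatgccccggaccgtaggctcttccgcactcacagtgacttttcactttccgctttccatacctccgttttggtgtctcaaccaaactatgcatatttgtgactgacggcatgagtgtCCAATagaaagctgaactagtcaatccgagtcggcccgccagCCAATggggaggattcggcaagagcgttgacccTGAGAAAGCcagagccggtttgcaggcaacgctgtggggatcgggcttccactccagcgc
The promoters of Psmb5 and Psmb6, which encode catalytic subunits, carry TGACNNNGC. Those of the other genes shown carry TGAGNNNGC.

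No constitutive subunit gene passed the threshold. Of 13 tested core genes 0, and of 19 tested regulatory genes 0, had a limma adjusted p below 0.05, where 12 of all 10916 tested genes (0.11%) did. At an unadjusted p below 0.05, 2 core genes (15.4%) and 0 regulatory genes passed, so 2 of 32 members (6.25%), where 18% of all tested genes did. Both were lower in the labelled knockout, where 10.1% of all tested genes were lower at that p. The same 2 members had groups that did not overlap, as did 5.01% of all tested genes. The median log2 difference was -0.059 over the core genes and -0.069 over the regulatory genes, beside -0.019 over all tested genes. With each array centred on its median these became 0.22, 0.21 and 0.26, so their sign depends on the scaling, and only 3 core genes and 1 regulatory gene lay below 0. As deposited, below 0 lay 8 of 13 core genes, 11 of 19 regulatory genes and 52.2% of all tested genes. In tissue samples of this kind, fewer cells of a type and less RNA per cell cannot be told apart.

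**Figure D1:**
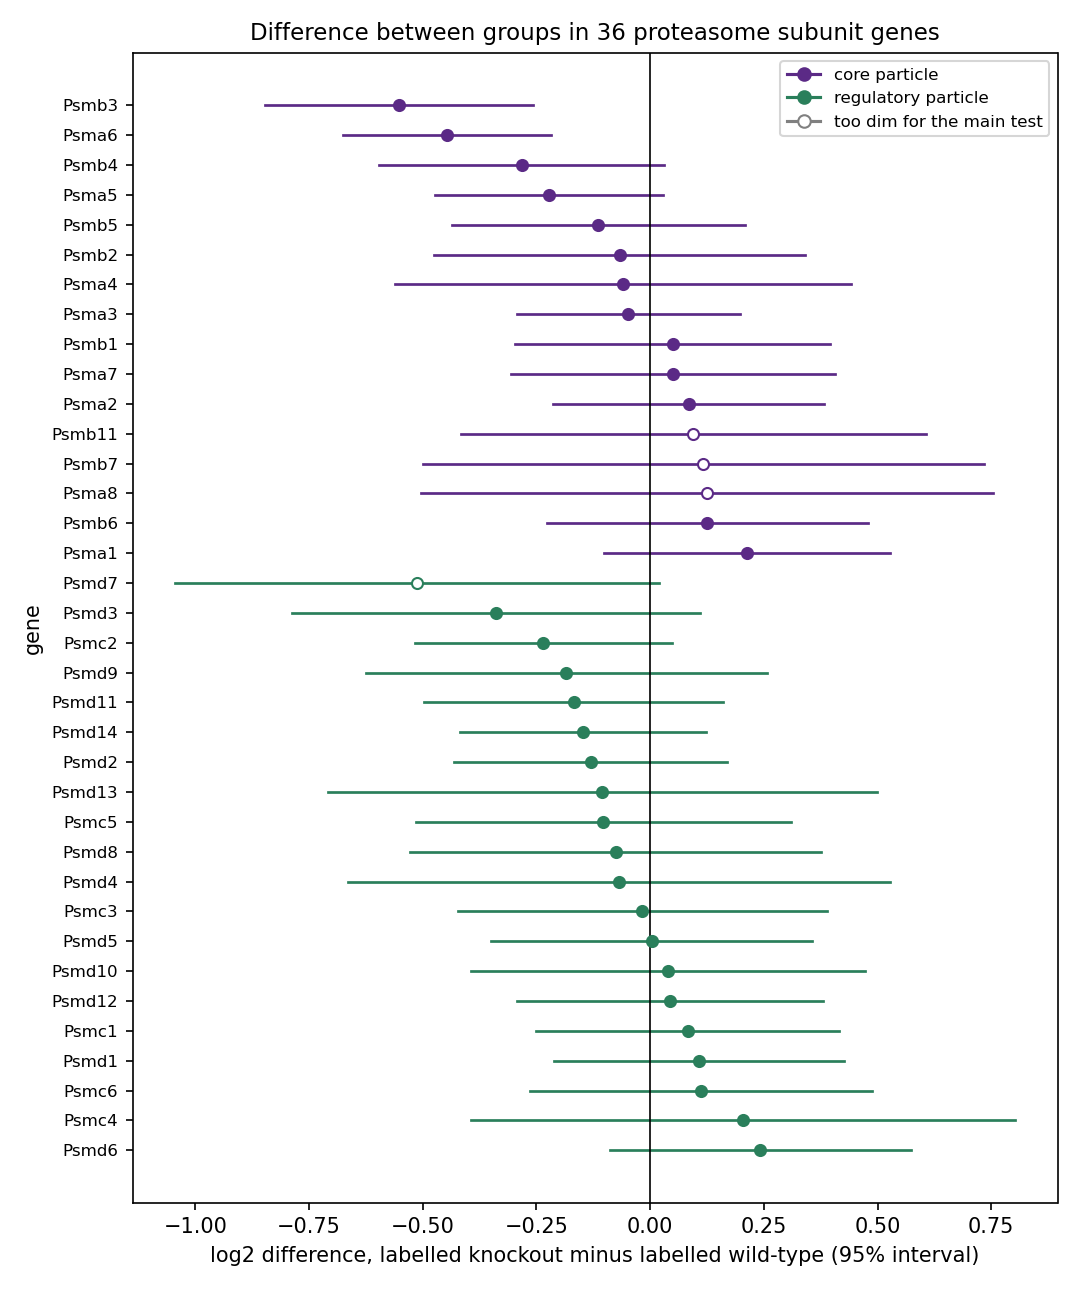
Log2 difference (labelled knockout minus labelled wild-type, horizontal axis) of each of the 36 genes (vertical axis) with its 95% interval from limma; open points are genes too dim for the test. Only the intervals of Psmb3 and Psma6 lie wholly below 0.

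Psmb3, which encodes a structural beta subunit without a cutting site, had the largest difference of any tested member. Its signal was 3384, 3475, 4349, 4952 and 4271 on the arrays labelled wild-type 1 to 5, and 3267, 2419, 2801, 2607 and 2744 on those labelled knockout 1 to 5. Every labelled knockout array lay below every labelled wild-type array, with the closest pair at knockout 1 and wild-type 1. Such separation in this direction was seen in 3.13% of all tested genes. The means were 4086 ± 656 and 2768 ± 316 (SD, n = 5 each), a log2 difference of -0.55 ± 0.14 (SE), with a limma adjusted p of 0.0685. The gene missed the threshold of 0.05, while 4.08% of tested genes had an adjusted p below 0.1, and 2.54% had one and were lower. Its second probe set, 1417052_at, differed by -0.36 ± 0.22 (SE) in the same direction. With array weights in limma, which count noisier arrays less, the difference was -0.58 and the adjusted p 0.0481. After quantile normalization, which gives all arrays one distribution, it was -0.53 with an adjusted p of 0.123. With each array centred on its median it was -0.27, with an adjusted p of 0.259. With the signal of the hybridization controls as a covariate, the lowest limma adjusted p of any member was 0.284.

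Psma6, an alpha ring subunit, was the other gene whose groups did not overlap. Its signal was 26592, 28630, 25155, 27529 and 24926 with the wild-type label, and 20807, 16876, 19618, 22100 and 18385 with the knockout label. All 5 labelled knockout arrays were lower, and the within-group spread was the smallest of the core genes, at 0.12 on the log2 scale. The means of 26566 ± 1571 and 19557 ± 2037 (SD, n = 5 each) gave a log2 difference of -0.45 ± 0.11 (SE), with a limma adjusted p of 0.0685. This value came from 1437144_x_at, whose suffix _x_at marks probes that can also pair with other transcripts. The other probe sets of Psma6 above the filter did not share the difference: 1416506_at differed by 0.07 ± 0.15 and 1435317_x_at by 0.05 ± 0.36 (SE). With _x_at probe sets used only where a gene has no other, the difference was 0.07, and with the mean of its probe sets it was -0.02. With array weights the adjusted p was 0.0498.

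The brightest genes of the arrays were lower as a body in the labelled knockout, and Psma6 is one of them. All 104 of the 104 tested genes with a mean log2 signal of at least 14 were lower, with a median difference of -0.51, and Psma6 is the only member among them. Of the 644 genes at 12 or more, 525 (81.5%) were lower with a median of -0.24, as were 6 of the 7 members there, with a median of -0.22. Quantile normalization gives all arrays one distribution, so a near-even split of the brightest genes is built into it and is no separate finding. After it 52 of the 104 and 318 of the 644 were lower, and Psma6 stood at 0.03. In that setting Psmc2 and Psmd14, also among the 7, stood at 0.010 and 0.041, on the other side of 0 from their deposited values given further on. Psmb3, at a mean log2 signal of 11.7, lies below that range and kept its difference in that setting. Over the 32 tested members, which share the same 10 arrays, brightness and difference had a Pearson r of -0.30 and a Spearman rho of -0.24, given as a description.

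**Figure D2:**
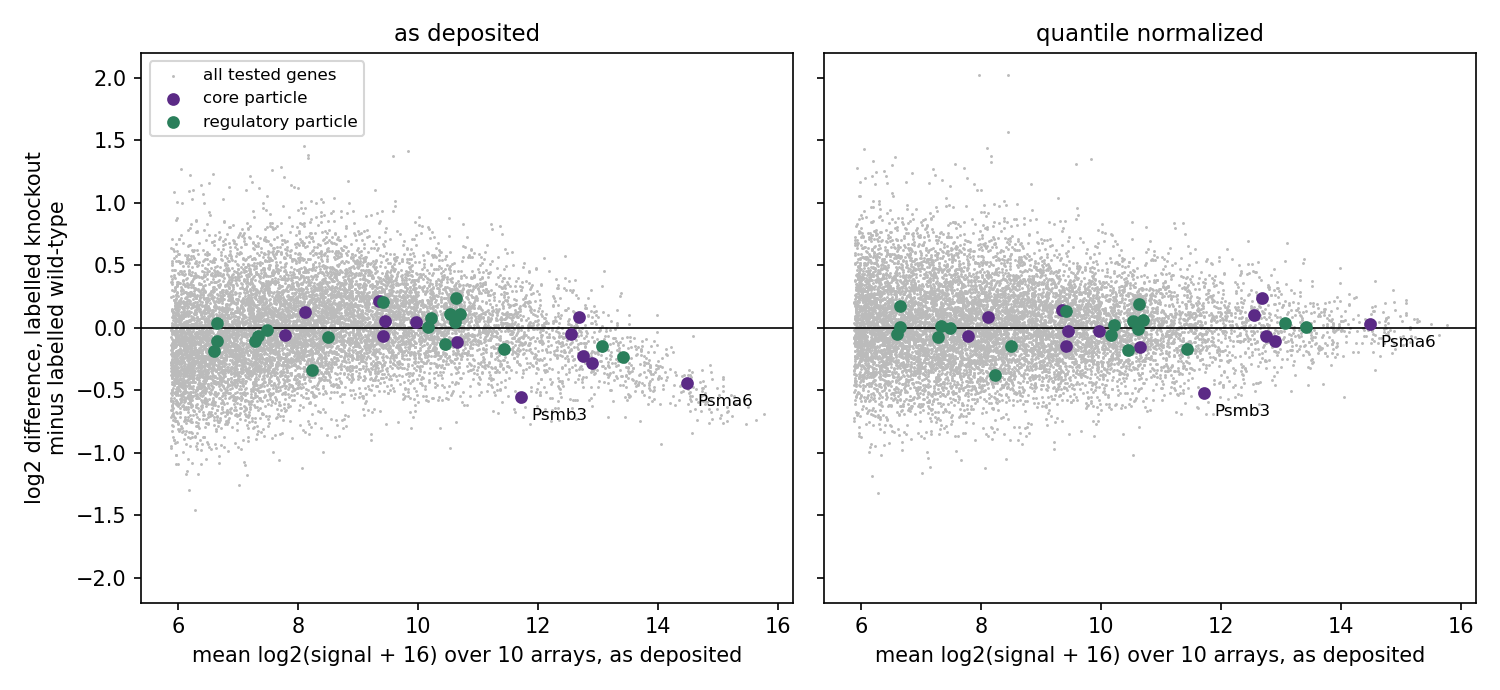
Log2 difference (labelled knockout minus labelled wild-type) against mean log2(signal + 16) over 10 arrays for all 10916 tested genes (grey), core genes (purple) and regulatory genes (green), as deposited (left) and after quantile normalization (right). The grey points bend below 0 at the bright end on the left and not on the right, where the normalization removes such a bend by construction. Psma6 lies at -0.45 on the left and 0.03 on the right, and Psmb3 at -0.55 and -0.53.

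Of the other alpha subunits, Psma5 was lower and Psma1 higher, neither beyond the threshold. Psma5 read 8300, 7845, 6795, 7181 and 7038 with the wild-type label and 7211, 5715, 7060, 5942 and 5961 with the knockout label. Knockout 1 and 3 lay inside the wild-type range and the other 3 below it. The log2 difference was -0.22 ± 0.12 (SE; limma adjusted p = 0.334), and its second bright probe set gave 0.09. Psma1 read 621, 528, 638, 698 and 504 against 738, 684, 589, 776 and 680. Of the knockout arrays only 1 and 4 lay above all labelled wild-type arrays, and the difference was 0.21 ± 0.15 (SE; limma adjusted p = 0.469). Its other probe set above the filter gave 0.29. The mean of all its probe sets gave -0.07, which includes 1436770_x_at and 1436769_at, below the filter, at -0.37 and -0.40. Psma2, Psma3, Psma4 and Psma7 had log2 differences between -0.06 and 0.08. The median over the 7 tested alpha genes was -0.05. Psma8, which replaces Psma7 in testis, was dim, at a mean signal of 14.2 and 14.1.

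Psmb5, Psmb6 and Psmb7 encode the catalytic beta subunits, with the chymotrypsin-like, caspase-like and trypsin-like sites. Psmb5 read 1314, 1675, 1663, 2145 and 1611 with the wild-type label and 1697, 1252, 1619, 1721 and 1436 with the knockout label. The groups overlapped, with wild-type 4 the highest and knockout 2 the lowest array, and the log2 difference was -0.11 (95% interval -0.44 to 0.21; limma adjusted p = 0.734). Psmb6 read 287, 190, 283, 243 and 254 against 264, 245, 262, 276 and 322. The groups again overlapped, with wild-type 2 the lowest and knockout 5 the highest, and the difference was 0.13 (95% interval -0.23 to 0.48; limma adjusted p = 0.732). Psmb7 has 1 probe set, which was below the filter. It read 29.0, 1.5, 24.5, 16.5 and 20.9 against 10.1, 17.8, 29.6, 34.1 and 12.5, with no order between the groups. Fitted with all genes it differed by 0.12 ± 0.29 (SE), or by -0.11 without wild-type 2, and at such signals a difference of moderate size was not detectable.

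Among the beta subunits without a cutting site, Psmb4 was lower without passing the threshold. Its signal was 8292, 10846, 8809, 7038 and 7581 with the wild-type label and 7548, 8771, 5631, 6543 and 6494 with the knockout label. Knockout 3, 4 and 5 lay below all labelled wild-type arrays. The log2 difference was -0.28 ± 0.15 (SE; limma adjusted p = 0.327) by an _x_at probe set, while its other probe set, 1451205_at, differed by 0.13 ± 0.15. Psmb1 and Psmb2 differed by 0.05 and -0.07. The median over the 6 tested beta genes was -0.09. Psmb11, the beta subunit of thymic epithelium, was dim, at a mean signal of 8.00 and 9.88.

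**Figure D3:**
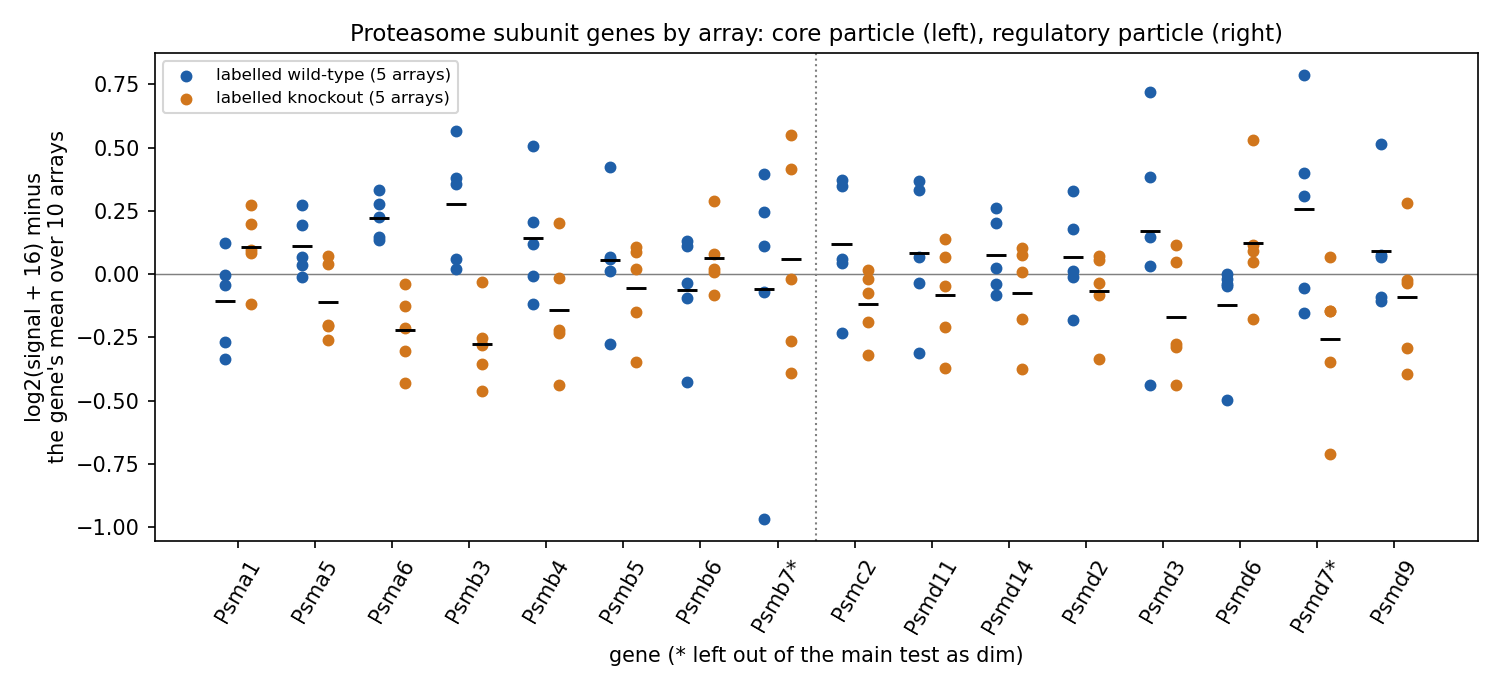
Log2(signal + 16) minus the gene's own mean over 10 arrays (vertical axis) for 16 genes (horizontal axis), 1 point per array; bars are group means of 5 arrays, and an asterisk marks genes left out of the test as dim. The groups separate in Psma6 and Psmb3 and overlap in the other genes drawn.

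In the regulatory particle the groups overlapped in all 19 tested genes. The ATPase genes Psmc1 to Psmc6 had a median difference of 0.03, with 3 above and 3 below 0. Psmc2 was the lowest of them. It read 13792, 11170, 14036, 11310 and 9221 with the wild-type label and 10698, 9520, 8697, 10290 and 10953 with the knockout label. Wild-type 5 lay among the knockout arrays and the other 4 above all of them. The log2 difference was -0.23 ± 0.13 (SE; limma adjusted p = 0.367) by an _x_at probe set, and its other probe set above the filter gave -0.03. Psmc4 differed by 0.21 but had the widest spread of the regulatory genes, a within-group SD of 0.56. Psmc1, Psmc3, Psmc5 and Psmc6 lay between -0.10 and 0.11. The other probe set of Psmc6 above the filter, 1417770_s_at, gave 0.41 ± 0.19 (SE; limma adjusted p = 0.374 over all probe sets).

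Of the tested non-ATPase genes, Psmd6, which encodes a subunit of the cap's lid, was the highest and Psmd3, also of the lid, the lowest. Psmd6 read 1580, 1112, 1535, 1558 and 1526 with the wild-type label and 1685, 1393, 2286, 1631 and 1709 with the knockout label. Wild-type 2 stood well below its group, and of the knockout arrays only knockout 2 lay below any of the other wild-type arrays. The log2 difference was 0.24 ± 0.16 (SE; limma adjusted p = 0.431). The dimmer probe set of Psmd6, 1423696_a_at, read 55.0, 55.9, 56.9, 52.0 and 69.8 with the wild-type label and 97.7, 132, 145, 78.3 and 77.0 with the knockout label. There all knockout arrays lay above all wild-type arrays, with a difference of 0.69 ± 0.23 (SE) and a limma adjusted p of 0.235 over all probe sets. This probe set does not represent the gene in the test and is given after its values were seen. It is 1 of 74 probe sets of members, and the share of all probe sets that separate this way was not counted. Psmd3 read 206, 291, 376, 479 and 316 against 205, 309, 232, 294 and 230. Wild-type 4 was high and wild-type 1 lay next to the lowest knockout array, and the difference was -0.34 ± 0.21 (SE; limma adjusted p = 0.417).

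Psmd14 encodes the deubiquitinase that removes ubiquitin chains as the substrate enters. It read 8111, 10298, 8745, 9896 and 8362 with the wild-type label and 9057, 6612, 9216, 8650 and 7585 with the knockout label. The groups overlapped, with knockout 2 the lowest array, and the log2 difference was -0.15 (95% interval -0.42 to 0.12; limma adjusted p = 0.565). Psmd11, a lid subunit that clamps the cap onto the core, read 2680, 2210, 3548, 2878 and 3466 against 2660, 3028, 2119, 2374 and 2879. Wild-type 3 and 5 were the highest arrays, and the difference was -0.17 ± 0.16 (SE; limma adjusted p = 0.596). Its other probe sets above the filter gave -0.36 and -0.38, in the same direction.

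Psmd2 is a scaffold that docks ubiquitin shuttles. It read 1371, 1214, 1739, 1566 and 1393 with the wild-type label and 1345, 1092, 1453, 1436 and 1302 with the knockout label. The ranges overlapped, and the log2 difference was -0.13 (95% interval -0.43 to 0.17; limma adjusted p = 0.662). Psmd9 is an assembly chaperone of the cap's base. It read 124, 86.2, 75.8, 86.8 and 74.7 against 103, 80.1, 79.3, 58.3 and 63.7. Wild-type 1 and knockout 1 were the highest of their groups, and the difference was -0.18 ± 0.21 (SE; limma adjusted p = 0.680). Its other probe set above the filter gave -0.28. The mean of all its probe sets gave 0.16, which includes 1447670_at, below the filter, at 0.96. The remaining tested non-ATPase genes, among them the ubiquitin receptor Psmd4, the scaffold Psmd1 and the chaperones Psmd5 and Psmd10, lay between -0.11 and 0.11. The median over all 13 tested non-ATPase genes was -0.08.

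Psmd7, the structural partner of the deubiquitinase, was too dim for the test. It read 19.98, 48.5, 33.3, 30.3 and 17.7 with the wild-type label and 17.8, 23.2, 17.8, 13.5 and 6.88 with the knockout label. Wild-type 2, 3 and 4 lay above all knockout arrays, and knockout 4 and 5 below all wild-type arrays. Fitted with all genes it differed by -0.51 ± 0.25 (SE; limma adjusted p = 0.350), and with the signal of the hybridization controls as a covariate by -0.05. At these signals the added 16 takes up much of the value, and a change would be understated.

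Different probe sets of a gene did not always give the same direction. How often this held over all tested genes was not counted. Of the 36 members, 17 have only 1 probe set. Among 15 tested members with more than 1 probe set above the filter, 10 had all of them on one side of 0. The exceptions were Psma5, Psma6, Psma7, Psmb1 and Psmb4, all core genes. Psmb1 had the widest range, from -0.50 to 0.78 over 3 probe sets, and its brightest probe set, with the smallest error, lay at 0.05. Psmb3 lay below 0, and Psmd6 above it, by both of their probe sets.

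**Figure D4:**
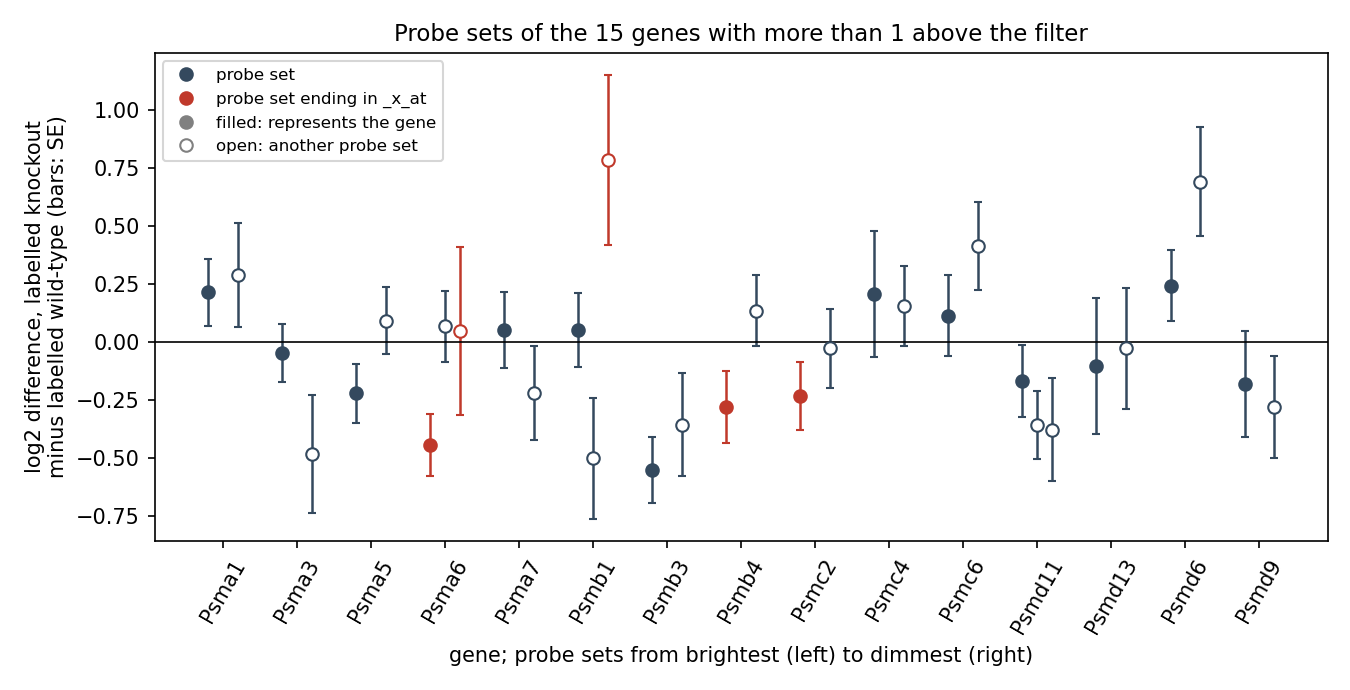
Log2 difference with its SE (vertical axis) for each probe set above the filter, in the 15 tested genes with more than 1 (horizontal axis); filled points represent the gene in the test, and red marks _x_at probe sets. Points of one gene lie on both sides of 0 in Psma5, Psma6, Psma7, Psmb1 and Psmb4.

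The subunit genes had a smaller spread between mice of one group than the typical gene. The median within-group SD was 0.22 over the core genes and 0.25 over the regulatory genes, against 0.32 over all tested genes. The part of signal brightness in this was not tested: the median of the mean log2 signal was 10.2 over the members and 8.16 over all tested genes. For 24 of the 32 tested members the 95% interval of the difference lay inside a 1.5-fold change either way (log2 0.58), 10 of 13 in the core and 14 of 19 in the regulatory particle. Among all tested genes this held for 3703 of 10916. A miss of the threshold is no proof of equality, and for the other 8 members a change of that size lies within the interval.

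Single arrays stood out across the members. The array labelled wild-type 4 was the highest of all 10 for 10 of 32 members (31.2%), against 14.8% of all tested genes, and knockout 2 was the lowest for 9 (28.1%), against 8.27%. Wild-type 2 was the lowest for 8 (25%), against 15.2%, and also the highest for 7 (21.9%), against 13.5%. The mean log2 signal of the 13 core genes was 10.84 to 11.16 with the wild-type label and 10.72 to 10.97 with the knockout label. Wild-type 4 was the highest array and knockout 2 the lowest. The 19 regulatory genes had 9.34 to 9.59 and 9.33 to 9.55, so both sets overlapped between the groups. Without wild-type 4 the median difference became 0.066 over the core genes and 0.023 over the regulatory genes. The regulatory median also lay above 0 without wild-type 5, at 0.017, and after quantile normalization, at 0.0094. The core median lay above 0, at 0.049, where _x_at probe sets were used only for genes with no other. The medians are thus too close to 0 to have a settled sign. The differences of Psmb3 and Psma6 without it were -0.48 and -0.43.

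**Figure D5:**
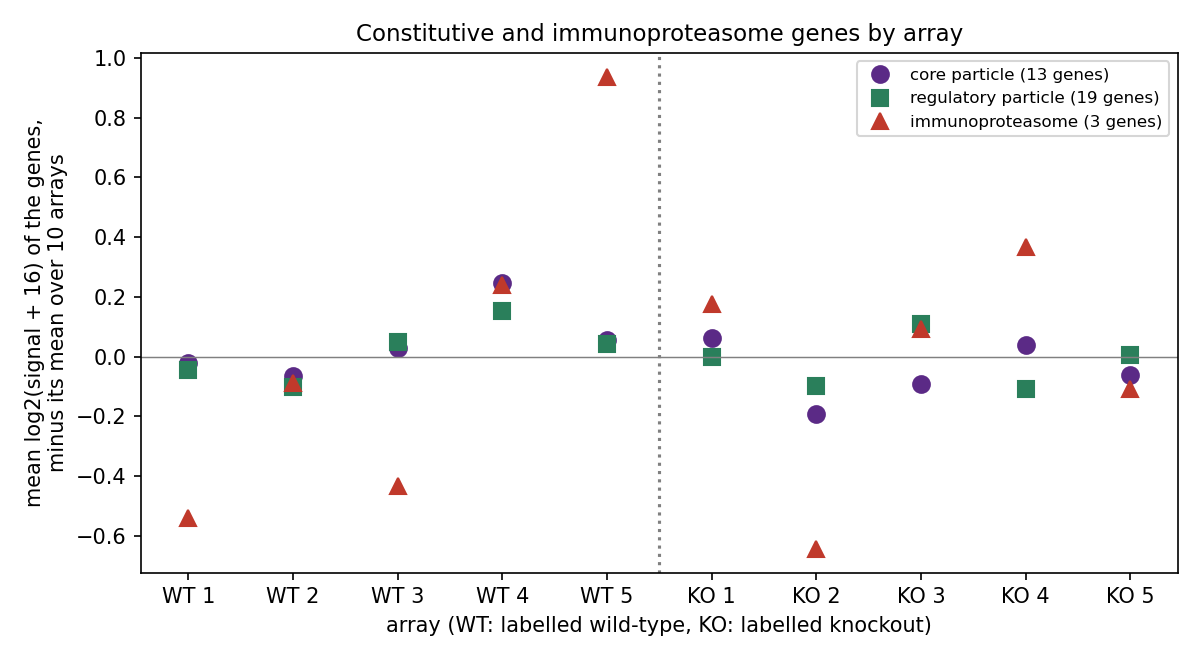
Mean log2(signal + 16) of the tested core genes (13), regulatory genes (19) and immunoproteasome genes (3) on each array, minus the set's mean over 10 arrays (vertical axis), by array (horizontal axis). Core and regulatory means stay near 0 on every array, with wild-type 4 the highest, while the immunoproteasome means range widely within both groups.

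The immunoproteasome genes Psmb8 and Psmb9 had a wider spread between mice of one group than Psmb5 and Psmb6, the subunits they replace. Psmb8, the counterpart of Psmb5, read 39.1, 78.0, 42.8, 96.1 and 197 with the wild-type label and 113, 45.0, 87.2, 144 and 76.8 with the knockout label. Wild-type 5 was the highest array and wild-type 1 the lowest, so the knockout arrays lay inside the wild-type range. The within-group SD on the log2 scale was 0.67 for Psmb8 and 0.58 for Psmb9, against 0.22 for Psmb5 and 0.19 for Psmb6. Psmb10 had SDs of 0.44 with the wild-type label and 0.37 with the knockout label, no wider than the 0.54 and 0.41 of its dim counterpart Psmb7. The log2 differences of Psmb8, Psmb9 and Psmb10 were 0.15, -0.14 and -0.14, with limma adjusted p of 0.859, 0.846 and 0.780. The part of signal brightness in this wider spread was not tested.

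Other genes of the pathway were read from lists, and none had a limma adjusted p below 0.05. Of the activators and the inhibitor, 0 of 4 tested passed an unadjusted p below 0.05, and Psme1, part of the interferon-induced activator, differed by -0.22, Psme4 by 0.18 and the inhibitor Psmf1 by -0.07. Of the assembly factors, 2 of 6 passed it, both higher, where 7.95% of all tested genes were higher at that p. Psmg2, a chaperone of the alpha ring, read 116, 110, 209, 155 and 121 with the wild-type label and 196, 183, 261, 230 and 242 with the knockout label. Wild-type 3 lay among the knockout arrays, the other 4 below all of them, and the log2 difference was 0.62 ± 0.20 (SE; limma adjusted p = 0.122). Akirin2, which brings assembled proteasomes into the nucleus, read 1171, 1220, 927, 1175 and 1024 against 1441, 1327, 1321, 1550 and 1443. All knockout arrays were higher, as in 1.88% of all tested genes, with a difference of 0.36 ± 0.13 (SE; limma adjusted p = 0.164). Psmg3 differed by 0.31, and Pomp, which drives assembly of the beta ring, by -0.02.

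The shuttles and the p97 complex carry and extract ubiquitinated proteins for the proteasome. Of 16 tested shuttle and p97 genes, 10 were higher, with a median of 0.07, and 3 (18.8%) passed an unadjusted p below 0.05, close to the 18% of all tested genes. Ubqln1, a shuttle receptor, read 591, 628, 585, 736 and 680 with the wild-type label and 828, 840, 1046, 1148 and 897 with the knockout label. All knockout arrays were higher, as in 1.88% of all tested genes, and the difference was 0.55 ± 0.15 (SE; limma adjusted p = 0.0794). Nploc4, of the same list, separated the other way, as did 3.13% of all tested genes. It read 281 to 357 with the wild-type label and 231 to 273 with the knockout label. Its difference was -0.27 ± 0.15 (SE; limma adjusted p = 0.352). Zfand5, which stimulates the proteasome, had means of 2137 ± 647 and 3549 ± 889 (SD, n = 5 each) and a difference of 0.75 ± 0.20 (SE; limma adjusted p = 0.0831). Ubqln4 differed by 0.42 (limma adjusted p = 0.257). Of the ubiquitin genes and activating enzymes only Uba6, an E1 enzyme, has a probe set of its own, and it differed by 0.68 ± 0.21 (SE; limma adjusted p = 0.111). None of these passed the threshold.

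The genes around Nfe2l1 showed no common direction, with 7 of 12 tested lower and a median of -0.07. Nfe2l1 itself read 337, 523, 511, 783 and 641 with the wild-type label and 431, 328, 433, 468 and 370 with the knockout label. Wild-type 1 lay among the knockout arrays and the other 4 above all of them, and the difference was -0.41 ± 0.20 (SE; limma adjusted p = 0.305). Its partners Mafg and Mafk, the 2 genes of 12 (16.7%) at an unadjusted p below 0.05, a share close to the 18% of all tested genes, differed by -1.05 ± 0.39 and -0.66 ± 0.27 (SE), with limma adjusted p of 0.169 and 0.210. Keap1, which holds back the related factor Nfe2l2, differed by -0.29 (limma adjusted p = 0.303). The core genes whose promoters carry a motif shown above lay between -0.55 in Psmb3 and 0.13 in Psmb6. Of the proteasome-associated proteins, 0 of 6 passed an unadjusted p below 0.05, with Ecpas, Txnl1 and Sem1 at 0.29, -0.15 and -0.13.

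No marker of another cell type had a limma adjusted p below 0.05. Tested markers of astrocytes, oligodendrocytes, neurons, striatum and blood lay on both sides of 0. The 3 tested endothelial and 2 tested microglial markers were all lower. The 3 tested markers of ependyma and choroid plexus and the 6 tested preoptic markers were all higher. Of these Ttr, a choroid plexus marker, read 8599 on knockout 3 and 131 to 582 on the other arrays. The sums below are on the deposited scale, on which bright genes were lower as a body. The summed signal of 6 astrocyte markers was 41248 to 51207 with the wild-type label and 28797 to 38959 with the knockout label, with 4 of 6 tested lower. That of 6 microglial markers was 6679 to 10320 and 4759 to 6918, and that of 5 oligodendrocyte markers 35677 to 54048 and 24919 to 38093. The striatal markers summed to 577 to 947 and 782 to 2447, and 7 of 9 neuronal markers were higher. Of 4 tested striatal markers, 3 were higher at an unadjusted limma p below 0.05, where 7.95% of all tested genes were. Pde10a, Drd1 and Penk differed by 1.60, 1.24 and 0.93, and Rgs9 by -0.25. The striatal sum was 2150, 1895 and 2447 on knockout 1 to 3, and 782 and 1066 on knockout 4 and 5. Single genes carry much of the glial sums: Gja1 and Mbp read up to 37221 and 49725, and Csf1r had means of 7973 and 5282, nearly all of the microglial sum. Only 2 of the 6 microglial markers were bright enough to be tested, and the dim P2ry12 and Tmem119 differed by 0.39 and 0.36, opposite to Csf1r at -0.58. The part of these markers in the differences of the subunit genes was not tested.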

How the data were processed

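RNA of 10 mice was read on 10 arrays, 5 per label, 1 mouse each. The deposited table holds linear intensities per probe set from GCOS, per the submitters' processing notes. GCOS version and settings, not given in the sources used here, remain unknown. All deposited arrays had one mean without the lowest and highest 2% of values. Probe sets were named by the platform's annotation, possibly outdated, and 34945 of 45101 named 1 gene. All 36 members matched RefSeq by Entrez ID, and 0 symbols changed.

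Values were analysed as log2(intensity + 16), so changes of dim genes are understated. Each gene took its probe set with the highest mean, and the dimmest 40% of genes were left out. limma 3.58.1 in R 4.3.3 (lmFit, eBayes with trend) compared the labels, with Benjamini-Hochberg adjustment over 10916 genes and a threshold of 0.05. Genes below the filter came from the same fit over all genes, and single probe sets from a fit over all probe sets. The fit was tested on simulated data. Members, lists and settings were chosen with earlier results of these data known. The text gives every array for Psmb5, Psmb6, Psmb7 and for up to 6 core and 8 regulatory members with the smallest p. Of each list it names up to 3 genes with the smallest p, and some others. The number of arrays limits the precision. Alternatives changed the scaling, added constant, filter, probe set rule, array weights, covariates, blocks and arrays.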

Additional observations from a re-analysis of the deposited data

Results flagged for a closer look

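On 2 occasions 1 array stood far from the other 4 of its group by Dixon's criterion, among 82 groups of 5 examined, where chance gives about 1 in 20. Psmd6 on the array labelled wild-type 2 had a log2 value of 10.14, with the nearest array of its group at 10.59. Psmb10, the immunoproteasome counterpart of Psmb7, had 8.26 on the array labelled knockout 2, with the nearest at 8.92.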

How the results depend on the processing

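The count of regulatory genes past the threshold was 0 in every setting run, and that of core genes was 0 except with array weights and at an adjusted p below 0.1, with 2 each (Psma6 and Psmb3). Over all tested genes the count of 12 became 19 with 64 added to the signal, 3 with no filter, 88 with the dimmest 60% left out, 1 where a gene's probe sets were averaged, 174 with array weights, 27 with the ratio of 3-prime to 5-prime control signal as a covariate and 445 at an adjusted p below 0.1. limma gave 0 after quantile normalization (1674 genes at an unadjusted p below 0.05), with no intensity trend (1958), with the spike-in controls as a block (1971), on the arrays with spike-in signal alone (1567) and with hybridization control signal as a covariate (1402). Leaving out 1 array gave 0 to 35 genes overall (highest without wild-type 5, and 1609 to 2172 at an unadjusted p below 0.05), 0 core and 0 regulatory genes, a core median of -0.14 to 0.066 and a regulatory median of -0.096 to 0.023, both highest without wild-type 4. Centring each array on its median called 985 genes, 954 of them higher (3 of 12 as reported). It moved the median of all genes to 0.26 and the core and regulatory medians to 0.22 and 0.21. Most members then lay above 0, and both of their medians lay below that of all genes. Where no alternative's construction shows the cause of such a move, the cause was not tested. Psma5, Psma6, Psmb4, Psmc2, Psmd14, Psma1 and Psmd9 moved by more than their spread between replicates with the probe set rule or after quantile normalization. Centring each array on its median raised every member alike, and for Psmb3, among others, by more than that spread (0.20 on the log2 scale). Replicate numbers did not pair the arrays: same-numbered arrays correlated at -0.15 to 0.07, and with the replicate block 1 gene was called overall (1774 at an unadjusted p below 0.05) and 0 members, with Psma6 at a limma adjusted p of 0.120 and Psmb3 at 0.135.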
